A study of Rattus norvegicus with 6 samples.

Results

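The 10 genes described here encode the sensors of the unfolded protein response of the endoplasmic reticulum (ER), the proteases and the transcription factor that carry their signals, and the other kinases of the translation factor eIF2alpha. They were taken by symbol from the platform annotation of the array: Eif2ak3, Ern1, Atf6, Atf6b, Mbtps1, Mbtps2, Xbp1, Eif2ak1, Eif2ak2 and Eif2ak4. Each of the 10 had 1 probe set, among 15037 named genes tested in all. The cells were primary hepatocytes from the liver of male Sprague-Dawley rats aged 8 weeks, plated on collagen in serum-containing William's E medium. 3 arrays measured cells left untreated (Control), and 3 measured cells kept for 30 h with trimethylamine N-oxide (TMAO) at 50 µM, which the liver makes from gut-derived trimethylamine. The comparison asks which of these genes differ in transcript level after TMAO. The labels call the samples biological repeats but do not say whether they came from separate animals, so p-values measure only the spread between these arrays, which may be technical.

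When unfolded proteins build up in the ER, 3 kinds of membrane protein signal to the rest of the cell. The kinase PERK, encoded by Eif2ak3, phosphorylates eIF2alpha, which slows most translation and favours that of the transcription factor ATF4. IRE1, encoded by Ern1, cuts the Xbp1 mRNA so that its religated form encodes an active transcription factor. ATF6 moves to the Golgi, where the site proteases encoded by Mbtps1 and Mbtps2 cut it and free its transcription factor domain. The cytosolic kinases HRI (Eif2ak1), PKR (Eif2ak2) and GCN2 (Eif2ak4) phosphorylate the same residue of eIF2alpha in response to low heme, double-stranded RNA and uncharged tRNA. These proteins are switched on by phosphorylation, splicing or cleavage, none of which an array signal measures, and the deposited signal of Xbp1 does not separate its spliced from its unspliced mRNA.

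None of the 10 genes passed the test across all genes, and the 2 with the smallest p were both higher on every TMAO array than on any Control array. Xbp1 had 1.35-fold the Control signal under TMAO (95% interval 1.13 to 1.62, n = 3 per group) and Atf6 had 1.39-fold (1.07 to 1.81). Eif2ak3 had 1.06-fold (0.818 to 1.37). Eif2ak4, for GCN2, had the largest difference of the 4 eIF2alpha kinases, at 0.777-fold (0.628 to 0.962). The lists of downstream targets held 3 of the 4 genes that passed among all 15037. These lists were chosen with earlier results of these data known, so that count is a description only. With 1 array left out, 0 to 2 of all genes passed.

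The promoter of Xbp1 is shown because it was the only one of 8 member promoters with a full match to the ER stress response element, the site at which ATF6 acts together with the CCAAT-binding factor NF-Y. Promoter windows of 300 bases, 250 before and 50 after a start site, were taken from RefSeq (rat assembly GRCr8) and were found for 8 of the 10 genes, all but Ern1 and Atf6. The element was searched on both strands as CCAAT, 9 bases of any kind and CCACG. It was present in 0.0657% of the 33469 windows of all genes (22 windows), and in 0.124% of the 12924 windows of tested genes. In the Xbp1 window (chr14:84604373-84604672, plus strand) the letters of the element are in capitals, and its first base lies 65 bases upstream of the start site.
Xbp1 promoter: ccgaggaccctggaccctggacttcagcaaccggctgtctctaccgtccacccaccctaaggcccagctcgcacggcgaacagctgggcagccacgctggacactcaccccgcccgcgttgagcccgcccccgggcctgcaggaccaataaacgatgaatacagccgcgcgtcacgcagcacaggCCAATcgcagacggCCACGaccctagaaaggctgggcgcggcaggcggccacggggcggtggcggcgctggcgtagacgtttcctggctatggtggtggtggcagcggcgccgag

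The element of Xbp1 is set beside those of the ER chaperone genes and other listed targets, each printed 5′ to 3′ on the strand that reads CCAAT first, with the fixed letters in capitals. Among the 10 ATF6 targets with a window, 5 held a match (Hspa5, Hsp90b1, Calr, Creld2 and Derl3), and Hsp90b1 held 2.
Xbp1 element: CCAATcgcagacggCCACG
Hspa5 element: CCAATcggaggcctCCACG
Hsp90b1 upstream element: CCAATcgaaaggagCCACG
Hsp90b1 downstream element: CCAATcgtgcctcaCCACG
Calr element: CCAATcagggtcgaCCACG
Creld2 element: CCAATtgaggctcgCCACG
Derl3 element: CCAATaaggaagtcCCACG
Dnajc3 element: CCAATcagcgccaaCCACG

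The only other motif of the search found in a member's promoter was the interferon-stimulated response element in Eif2ak2, the interferon-inducible member of the set. It was searched on both strands as GAAA, 2 bases of any kind and GAAA, and was present in 3.92% of all windows. Its first base lies 16 bases upstream of the start site in the window chr6:21940904-21941203 (plus strand), where its fixed letters are in capitals.
Eif2ak2 promoter: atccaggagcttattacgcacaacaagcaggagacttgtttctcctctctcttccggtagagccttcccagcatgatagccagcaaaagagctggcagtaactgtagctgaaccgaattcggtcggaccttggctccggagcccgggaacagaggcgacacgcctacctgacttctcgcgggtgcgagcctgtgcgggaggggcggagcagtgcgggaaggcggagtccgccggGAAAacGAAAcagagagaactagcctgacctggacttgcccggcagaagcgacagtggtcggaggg
Neither of these matches overlapped another motif of the search. The related elements, ATTGG with 1 base of any kind and CCACG, and TGACGTGG, and the C/EBP-ATF element TGATGNAA that ATF4 can bind, had matches in 0.0508%, 0.595% and 3.98% of all windows and in 0 of the 8 member windows. A match or its absence describes letters in a window and does not show binding.

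The array labelled TMAO replicate 3 stood apart from the other 5. On the first principal component over all genes, which held 30.8% of the variance, it scored 27.6 against -13.3 to -1.48. Its spiked labelling controls averaged 8.02 on the log2 scale against 7.39 to 7.86 on the others, and its hybridisation controls 9.84 against 9.37 to 9.64. 5 of the 10 genes had their highest value on this array, which was the case for 22.7% of all genes. Differences that moved by over 1.5 times without it are given with and without it. Of the measured hepatocyte markers, 10 of 12 exceeded the negative controls' median (3.95) by 1 log2 unit or more on all arrays, while Cps1 and Cyp2e1 did not. Macrophage markers averaged 5.19 to 5.40 on the Control arrays and 5.06 to 5.18 on the TMAO arrays. Of these 14 markers 7 were below that limit on every array, among them Adgre1, Csf1r and Ptprc. Another 5 were above it on all arrays: Cd68, Lyz2, C1qa, C1qc and Cd14. Of 12 stellate and fibroblast markers 7 were above it on all arrays, among them Tagln, Reln, Vim and Acta2, and 5 were below it on all. The mean of these 12 was 5.698 on TMAO replicate 3 and 5.964 to 6.076 on the other arrays. Of 10 endothelial markers 0 were above the limit on all arrays, and of 7 cholangiocyte markers 4 were. The part of cells other than hepatocytes in the results was not tested. In such bulk samples fewer cells of a type and less RNA per cell cannot be told apart.

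All 10 genes lay at least 1 log2 unit above the negative controls on all 6 arrays, as did 61% of all genes. Differences below are log2 signals under TMAO less those in Control, with the standard error (SE) of the limma fit. Adjusted p-values are limma's after Benjamini-Hochberg adjustment across the 15037 genes, with a threshold of 0.05. 0 of the 10 passed it, against 4 of all genes (0.0266%). At an unadjusted p under 0.05, 2 members were higher (Xbp1 and Atf6) and 1 was lower (Eif2ak4), where 3.01% and 2.48% of all genes were. With 1 array left out, 1 to 3 of the members had an unadjusted p under 0.05. The count was 1 without Control replicate 1 and without Control replicate 2. The groups did not overlap for 2 members in the higher direction and 1 in the lower, against 5.51% and 5.33% of all genes. 7 members had a higher mean under TMAO, against 49% of all genes, and the median difference over the 10 was 0.12, against -0.0035 over all genes. That median was 0.07 without TMAO replicate 3, 0.060 without Control replicate 3 and 0.23 without Control replicate 1.

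**Figure D1:**
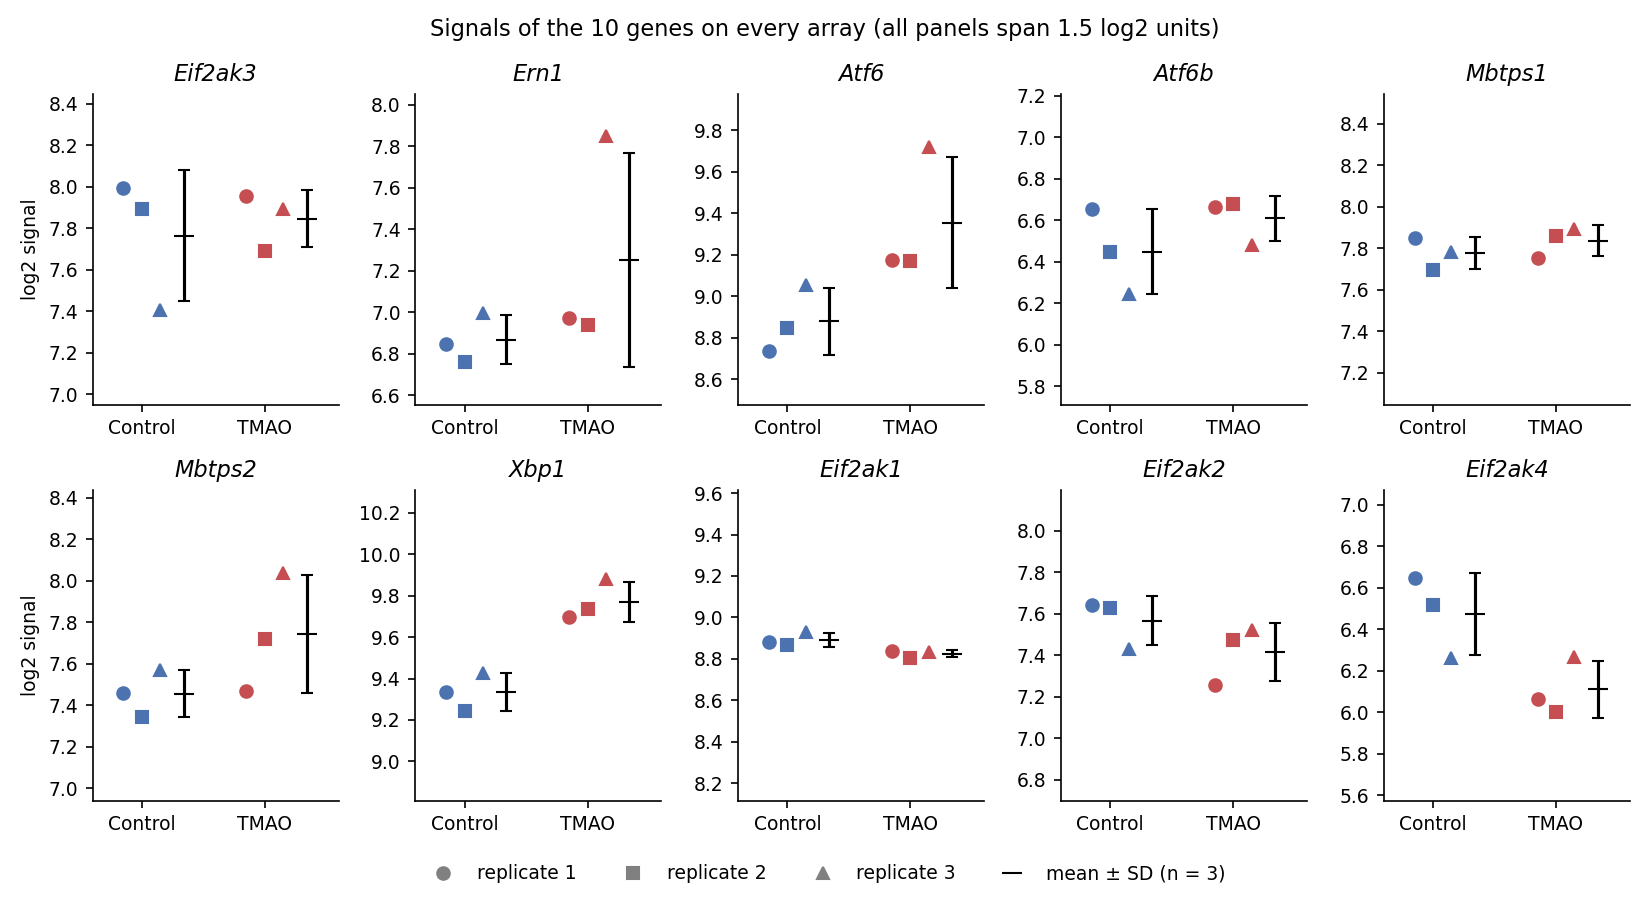
Log2 signal of each gene on the 3 Control arrays (blue) and the 3 TMAO arrays (red), with marker shapes for the replicate number and black bars for the mean ± SD. Xbp1 and Atf6 have every TMAO array above every Control array, and TMAO replicate 3 is far from the other arrays for Ern1, at 7.85.

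Among the ER sensors, Eif2ak3 had log2 signals of 7.99, 7.89 and 7.41 on Control replicates 1, 2 and 3, and of 7.96, 7.69 and 7.89 on the TMAO replicates. The TMAO values lay within the Control range, and Control replicate 3 was the lowest of the 6 arrays. The means were 7.76 ± 0.31 in Control and 7.85 ± 0.14 under TMAO (SD, n = 3), a difference of 0.08 ± 0.17 (SE) with an adjusted p of 0.997. With 1 array left out the difference ran from -0.097 without Control replicate 3 to 0.197 without Control replicate 1. Over all 6 arrays the interval of the difference ran from -0.29 to 0.46, so none was detectable for PERK mRNA at this precision.

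Ern1, which encodes the endonuclease IRE1, had signals of 6.85, 6.76 and 7.0 in Control and of 6.97, 6.94 and 7.85 under TMAO. 5 of the arrays lay between 6.76 and 7.0, and TMAO replicate 3 alone was higher. The difference of 0.39 ± 0.23 (adjusted p 0.958) came to 0.09 without that array.

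Atf6 had signals of 8.73, 8.85 and 9.05 on the Control arrays and of 9.18, 9.17 and 9.72 on the TMAO arrays. The groups did not overlap, but the gap between the highest Control and the lowest TMAO array was small beside the height of TMAO replicate 3. The difference was 0.48 ± 0.17 with an adjusted p of 0.859, and 0.29 without TMAO replicate 3. In absolute size it exceeded that of 98.6% of all genes.
Its paralogue Atf6b, a membrane-bound factor of the same family, had signals of 6.65, 6.45 and 6.24 in Control and of 6.67, 6.68 and 6.48 under TMAO. The groups overlapped. The difference was 0.16 ± 0.13 (adjusted p 0.963), with 0.058 when Control replicate 3 was left out and 0.26 when Control replicate 1 was.

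The site proteases cut ATF6 and the sterol-regulated SREBP factors in turn. Mbtps1, for the site-1 protease, had signals of 7.85, 7.70 and 7.78 in Control and of 7.75, 7.86 and 7.89 under TMAO. These overlapped, and the difference of 0.06 ± 0.11 (adjusted p 0.997) had an interval of -0.19 to 0.31. It was 0.030 without TMAO replicate 3, 0.020 without Control replicate 2, 0.096 without Control replicate 1 and 0.10 without TMAO replicate 1. Mbtps2, for the site-2 metalloprotease, had signals of 7.46, 7.34 and 7.57 in Control and of 7.47, 7.72 and 8.04 under TMAO. TMAO replicate 1 lay inside the Control range and the other TMAO arrays above it. The difference of 0.29 ± 0.15 (adjusted p 0.958) came to 0.14 without TMAO replicate 3.

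Xbp1, the transcription factor whose mRNA IRE1 processes, had signals of 9.33, 9.24 and 9.43 on the Control arrays and of 9.70, 9.73 and 9.88 on the TMAO arrays. All TMAO arrays were above all Control arrays, and neither group spread widely (SD of 0.09 in Control and 0.10 under TMAO). The difference was 0.44 ± 0.11 with an unadjusted p of 0.00382 and an adjusted p of 0.581, and it ranked 95 of 15037 by p. It was 0.38 without TMAO replicate 3, and ran from 0.38 to 0.48 with any 1 array left out.

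Of the cytosolic kinases, Eif2ak4 had signals of 6.64, 6.52 and 6.26 in Control and of 6.06, 6.0 and 6.26 under TMAO. Control replicate 3 and TMAO replicate 3 had nearly the same value, and the other TMAO arrays were below all Control arrays. The difference was -0.36 ± 0.14 (adjusted p 0.893) and came to -0.44 without TMAO replicate 3. Eif2ak2 had signals of 7.64, 7.63 and 7.43 in Control and of 7.25, 7.47 and 7.52 under TMAO, which overlapped, with a difference of -0.15 ± 0.12 (adjusted p 0.963) that came to -0.071 without TMAO replicate 1. Eif2ak1 had signals of 8.88, 8.87 and 8.93 in Control and of 8.84, 8.81 and 8.83 under TMAO. These groups did not overlap, but the difference was only -0.07 ± 0.10 (adjusted p 0.994), and its interval ran from 0.814-fold to 1.12-fold. That gene had the smallest spread of the 10, with SDs of 0.03 and 0.02.

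**Figure D2:**
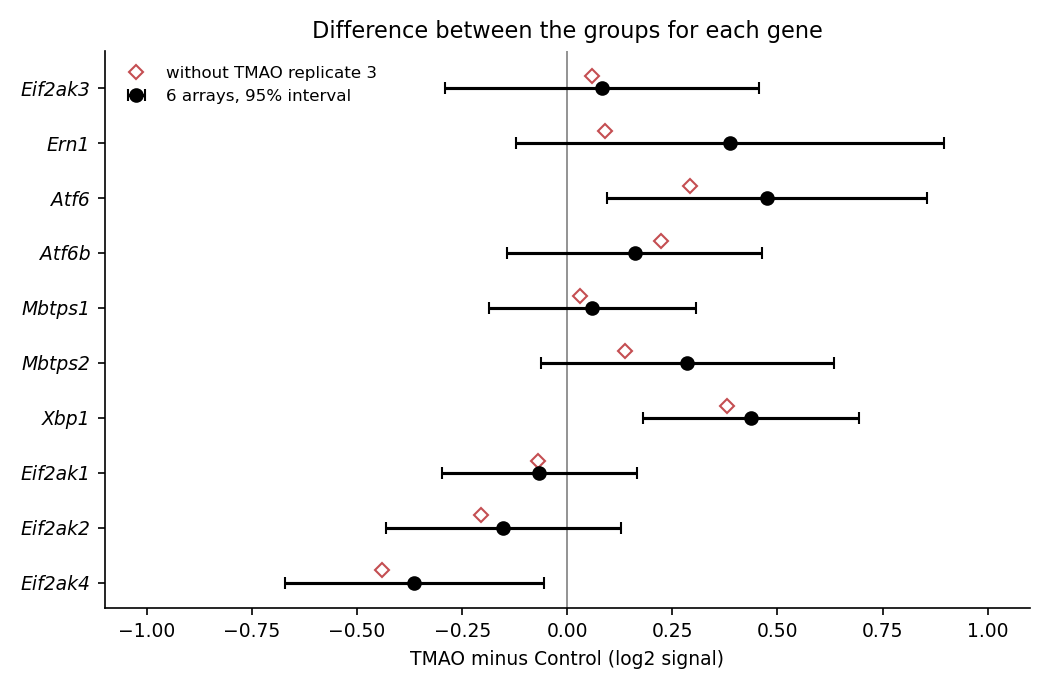
Difference between the groups (TMAO minus Control, log2 signal) for each gene, as black points with 95% intervals over all 6 arrays, and as open red diamonds without TMAO replicate 3. The intervals of Xbp1 and Atf6 lie above 0 and that of Eif2ak4 below it, and the diamond of Ern1 sits at 0.09.

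To ask whether related members differed in their response, the difference between their signals within each array was compared between the groups for 6 pairs, chosen after the values were seen, by a two-sided exact permutation test over the arrays. With 3 arrays a group this test cannot give a p below 0.1. Eif2ak3 against Eif2ak4 was the only pair whose within-array differences did not overlap. They were 1.35, 1.38 and 1.15 in Control and 1.89, 1.69 and 1.63 under TMAO, so the within-array difference was higher under TMAO by 0.45 ± 0.11 (SE, exact p = 0.1, adjusted over the 6 pairs 0.6). Atf6 against Atf6b gave 0.315 ± 0.32 (exact p = 0.4) and Mbtps2 against Mbtps1 gave 0.23 ± 0.14 (exact p = 0.2). Xbp1 against Ern1 gave 0.05 ± 0.24 (exact p = 1). Eif2ak3 gave 0.15 ± 0.21 against Eif2ak1 (exact p = 0.6) and 0.23 ± 0.18 against Eif2ak2 (exact p = 0.4). Since its smallest p of 0.1 is above 0.05, this test could not show for any pair whether its members differed. Without TMAO replicate 3, Atf6 against Atf6b came to 0.069, Mbtps2 against Mbtps1 to 0.11 and Xbp1 against Ern1 to 0.29.

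The targets of the 3 arms are set beside their sensors, in lists chosen with earlier results of these data known. The eIF2alpha kinases phosphorylate the same residue, so the PERK-ATF4 targets cannot tell PERK from the other kinases. Which kinase acted, if any, was not tested. Of all genes, 49% had higher means and 3.01% were higher at an unadjusted p under 0.05. At that p, 17 of 25 PERK-ATF4 targets, 11 of 12 ATF6 targets and 8 of 18 IRE1-XBP1 targets were higher. All 25 measured PERK-ATF4 targets had higher means, with a median difference of 0.59, and 1 of them rose by the adjusted test (Vldlr, a lipoprotein receptor, by 1.65 ± 0.19, adjusted p 0.0373). Slc7a5, an amino acid transporter, had a difference of 1.32 ± 0.19 (adjusted p 0.102). The smallest difference of that list, 0.0049 for Stc2, came to -0.12 without TMAO replicate 1 and to 0.20 without TMAO replicate 3. All 12 measured ATF6 targets had higher means, with a median of 0.79, and 2 rose: Herpud1, which acts in ER-associated degradation, by 1.80 ± 0.19, and the ER chaperone Hspa5 by 1.02 ± 0.12 (adjusted p 0.0373 each). Of 18 measured IRE1-XBP1 targets 15 had higher means, with a median of 0.28, and 0 passed, with 8 at an unadjusted p under 0.05 and 0 past the adjusted threshold under each alternative that gave this count. The members of lowest p were Dnajb9, a co-chaperone (1.16 ± 0.26, adjusted p 0.466), and Ostc, a subunit of the oligosaccharyltransferase (0.58 ± 0.14, adjusted p 0.539). Leaving out Control replicate 1, 2 or 3 or TMAO replicate 2 or 3 left 0 genes past the adjusted threshold anywhere, and leaving out TMAO replicate 1 left 2, of which 1 was a PERK-ATF4 target and 0 were ATF6 targets.

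**Figure D3:**
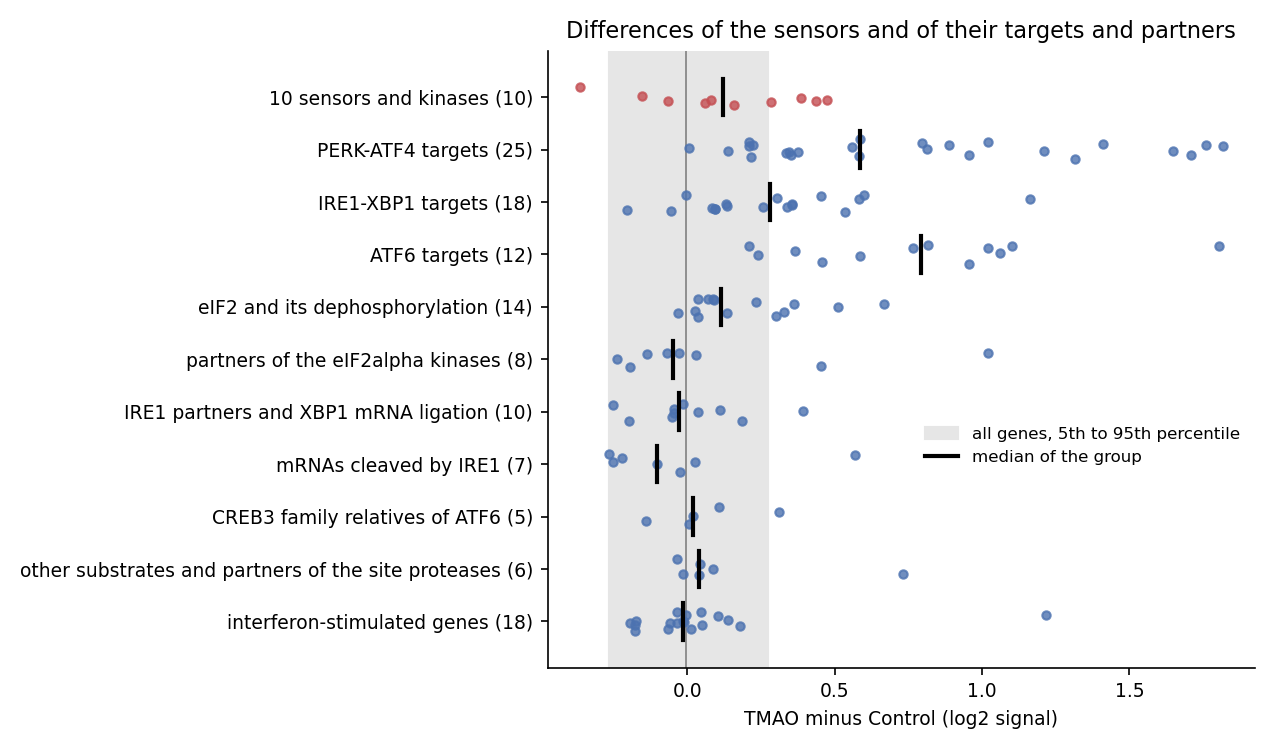
Difference between the groups (TMAO minus Control, log2 signal) of the 10 sensors and kinases (red) and of each list of targets and partners (blue), 1 point per gene, with a black line at the median and the number of measured genes in brackets. The grey band spans the 5th to the 95th percentile of single genes over the array and is no reference for a median. All points of the PERK-ATF4 and ATF6 targets lie above 0.

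Around eIF2 itself, 13 of 14 measured genes of the factor, its exchange factor and its phosphatases had higher means, with a median of 0.11, and 0 passed the adjusted test (3 at an unadjusted p under 0.05). Eif2b3, a subunit of the exchange factor eIF2B, had a difference of 0.51 ± 0.14 (adjusted p 0.703). Ppp1r15a, the stress-induced phosphatase subunit that restores translation, had one of 0.67 ± 0.27 (adjusted p 0.909), which came to 0.40 without TMAO replicate 3 and to 0.42 without Control replicate 3.

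Of 8 partners of the eIF2alpha kinases, 3 had higher means and 5 lower, with a median of -0.05. The higher ones included Hspa5, which binds PERK in unstressed cells and rose as given above, and Dnajc3, an inhibitor of PERK and PKR, with a difference of 0.45 ± 0.14 (adjusted p 0.784). Both also stand in a target list. Gcn1, the activator of GCN2, was named after its values were seen, with -0.24 ± 0.11 (adjusted p 0.933) and no overlap between the groups.

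IRE1 partners and genes of Xbp1 mRNA ligation had a median of -0.03 over 10 measured genes, 4 of them higher, and 0 passed (1 at an unadjusted p under 0.05). Traf2, the adaptor through which IRE1 reaches stress kinases, had a difference of 0.39 ± 0.16 (adjusted p 0.909), which came to 0.22 without TMAO replicate 3. Ptpn1, a phosphatase of the ER membrane, had one of -0.25 ± 0.13 (adjusted p 0.958), which came to -0.15 without TMAO replicate 2. mRNAs that IRE1 is known to cleave in mouse or human cells had a median of -0.10 over 7 measured genes, 5 of them lower, and 0 passed (1 at an unadjusted p under 0.05). With 1 array left out this median ran from -0.14 to -0.0072, the latter without TMAO replicate 3. Bloc1s1 had a difference of -0.27 ± 0.14 (adjusted p 0.958), which came to -0.13 without TMAO replicate 3, and Pmp22 one of 0.57 ± 0.17 (adjusted p 0.742). Of the 5 lower genes, Scara3 and Pdgfrb were below the limit of 1 log2 unit above the negative controls on all arrays, and Cyp2e1 was above it on 2. Of the 4 genes above it on all arrays, Pmp22 and Sparc had higher means and Bloc1s1 and Cyp1a2 lower ones.

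The list of CREB3 relatives of ATF6 held 4 measured membrane-bound factors cut by the same proteases and Crebzf, a nuclear factor that is not such a substrate. Crebzf had a difference of 0.0049, which came to 0.041 without TMAO replicate 3. The median over the 5 genes of the list was 0.02, which came to 0.041 without that array. 0 of them passed (1 at an unadjusted p under 0.05). Creb3l2 had a difference of 0.31 ± 0.14 (adjusted p 0.909). Creb3l4 was not above the background limit on any array. With 1 array left out the median of these 5 ran from -0.026 to 0.16. The other substrates and partners of the site proteases had a median of 0.04 over 6 measured genes, and 0 passed (1 at an unadjusted p under 0.05). Insig1, which holds the SREBP escort in the ER, had a difference of 0.73 ± 0.23 (adjusted p 0.829), which came to 0.45 without TMAO replicate 3. Its relative Insig2 had one of 0.09 ± 0.13 (adjusted p 0.994), which came to -0.023 without that array. The median of this list ran from 0.0055 without TMAO replicate 3 to 0.088 without Control replicate 1, and that of the IRE1 partners from -0.034 without TMAO replicate 1 to -0.0002 without TMAO replicate 3.

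Interferon-stimulated genes, to which Eif2ak2 belongs by its known regulation, had a median of -0.01 over 18 measured genes, with 7 higher and 11 lower. 0 passed, also at an unadjusted p under 0.05. Only 10 of the 18 were above the limit of 1 log2 unit above the negative controls on all arrays, and 4 were below it on all. Rsad2, an antiviral enzyme, had a difference of 1.22 ± 0.65 (adjusted p 0.958) and was above that limit on 3 arrays. Its signals were 4.16, 4.19 and 5.79 in Control and 5.37, 4.89 and 7.53 under TMAO, so the groups overlapped. The difference of Rsad2 came to 0.41 without TMAO replicate 3. The median of the list ran from -0.13 without that array to 0.10 without TMAO replicate 2. Dhx58, an RNA sensor, had one of -0.19 ± 0.13 (adjusted p 0.963), which came to -0.085 without Control replicate 1 and to -0.31 without Control replicate 3.

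Xbp1 was also set beside the other genes whose promoters carried the same element, a grouping by sequence that uses no signal. 15 tested genes had a match to the ER stress response element, 6 of which stand in the target lists. 13 of the 15 were higher on average after TMAO, against 49% of all genes. Their median difference was 0.30 against -0.0035 over all genes, and for 9 the groups did not overlap in the higher direction, against 5.51% of all genes. 1 of them, Hspa5, passed the adjusted test. Xbp1 came seventh by size, between Dnajc3 (0.45) and Zfand2a, a stress-induced proteasome partner (0.30 ± 0.14, adjusted p 0.938, with 0.17 when TMAO replicate 3 was left out). Ero1b, an oxidase of the ER lumen outside the lists, had a difference of 0.67 ± 0.16 (adjusted p 0.548), and the chaperone Canx one of 0.14 ± 0.10 (adjusted p 0.963). Among the 8 genes with the element that were neither members nor in a list, 6 had higher means and the median was 0.15. Without TMAO replicate 3 the median of the 15 was 0.21 and 14 had higher means, and the lowest gene, Birc5, came to -0.14.

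**Figure D4:**
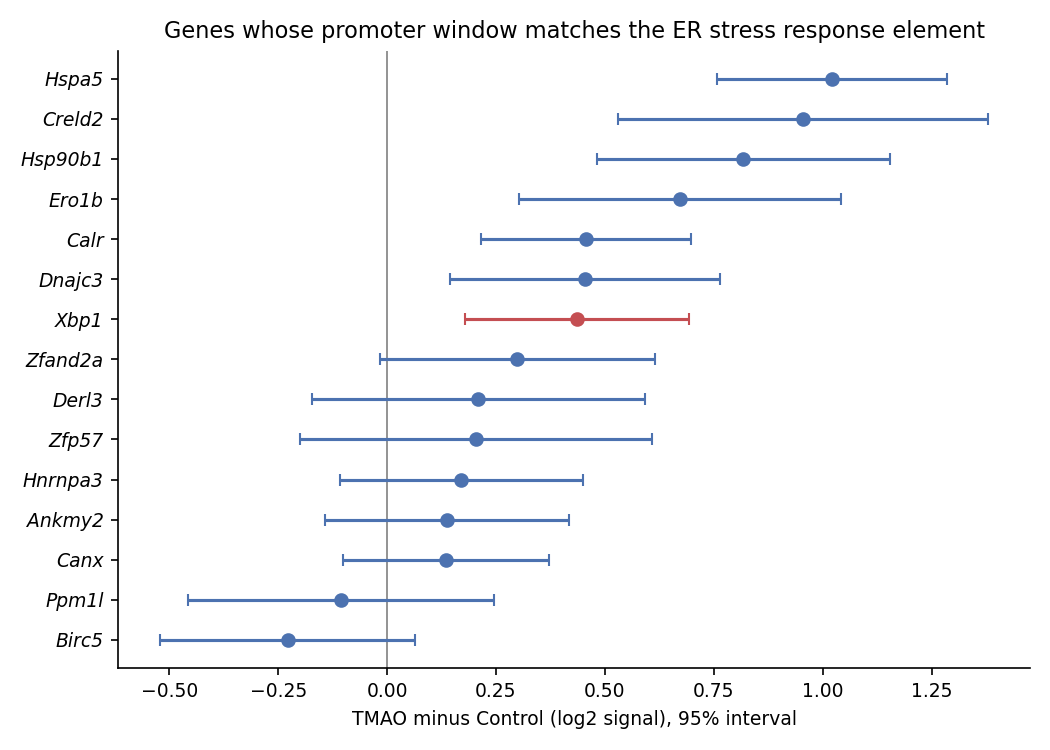
Difference between the groups (TMAO minus Control, log2 signal) with 95% intervals for the 15 tested genes whose promoter window matches the ER stress response element, ordered by size, with Xbp1 in red. 13 of the 15 points lie above 0, from Hspa5 at 1.02 to Birc5 at -0.23.

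The genes whose pattern over the 6 arrays was most like that of Xbp1 and the 3 main sensors were taken from 9933 genes with a mean at least 1 log2 unit above the negative controls, as the 2 of highest Pearson correlation. These correlations describe 6 arrays that share their treatment groups and include TMAO replicate 3, on which Ern1 and Atf6 were highest. Each was picked as 1 of the 2 highest among 9933 genes, so a value near 1 does not show shared regulation, which was not tested. Ern1 deviated from its mean over the arrays by 0.79 on that array and by -0.30 to -0.066 on the others. Atf6 deviated by 0.60 there and by -0.38 to 0.059 on the others. For Xbp1 the first gene was Sars1, a cytosolic seryl-tRNA synthetase (r = 0.994, difference 0.69, adjusted p 0.278). The second was Bltp3b (r = 0.992, difference 0.32, adjusted p 0.856). For Atf6 they were Yae1 (r = 0.998) and Polr1c, a subunit of RNA polymerases I and III (r = 0.996). For Ern1 they were Tk2, the mitochondrial thymidine kinase (r = 0.996), and Arcn1, a coatomer subunit (r = 0.995). For Eif2ak3 they were Enpp2, which encodes autotaxin (r = 0.992), and Bclaf1 (r = 0.988).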

How the data were processed

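RNA of 6 hepatocyte cultures was measured on Affymetrix Clariom S Rat arrays, per the file headers. The authors deposited log2 signals for each probe set. How these were background-corrected, normalized and summarised is not given in the sources used here. limma is named, with no version or role, per the submitters' processing notes. A second table with 6 columns that no label ties to samples was not used.

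Of 24871 probe sets 1683 were controls, and of the other 23188 probe sets 15049 had 1 symbol, 0 several and 8139 none. All 15049 gene identifiers matched the RefSeq table of assembly GRCr8. The probe set of highest mean stood for a gene (10 genes had several), leaving 15037. Groups came from the sample titles. TMAO was compared with Control by limma 3.58.1 in R 4.3.3 (lmFit and eBayes, group as the only term, two-sided), tested on simulated data. No coordinates of probe sets are given, since no build is named for them. The number of arrays limits the precision.

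The members, lists and tests were chosen with earlier results of these data known. The genes named by rule were the 10 members, the 2 measured genes of smallest unadjusted p in each list, and the 2 genes most correlated with Xbp1, Eif2ak3, Ern1 and Atf6. Other list genes, among them Gcn1, Stc2 and Crebzf, are named outside this rule, with their values known. Genes with a promoter element were found by sequence, and those described singly were named with their values known. Alternatives covered normalization, probe set choice, filters on dim genes, estimation of the spread, array weights, the replicate number as a block, and leaving out each array. The left-out values of list genes and pairs were added after seeing the data.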

Additional observations from a re-analysis of the deposited data

How the results depend on the processing

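0 of the 10 members passed the adjusted threshold under every alternative run. The lowest adjusted p of Xbp1 was 0.103, with trended and robust estimation of the variance. The count over all genes (4) became 30 with that estimation, 9 for genes no dimmer than the median signal and 7 with array weights, and it was 0 with all probe sets tested separately. PERK-ATF4 targets past the threshold (1) were 8 with trended and robust estimation, 2 with array weights and 0 with probe sets tested separately, ATF6 targets (2) were 8 and 0, with the first and the last of these, and kinase partners (1) were 0 with the last. The cause was not tested. In the fit with the replicate block, 0 genes passed in all of these counts. The deviations of arrays that share a number had correlations of 0.13, 0.10 and -0.011, number 3 did not correlate best with itself, and the labels do not say what a number marks. With 1 array left out, the counts ran from 0 to 2 over all genes, from 0 to 1 for PERK-ATF4 targets, and were 0 for ATF6 targets and for kinase partners. The median over the members ran from 0.060 to 0.23 and that of the CREB3 family from -0.026 to 0.16. The difference of Eif2ak3 turned to -0.022 with array weights and to -0.097 without Control replicate 3, and ran up to 0.197 with another array left out. The other members kept their direction under all alternatives. Filters on dim genes gave no list medians, since they would drop list genes.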

Other observations

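The second form of the ER stress response element, ATTGG with 1 base of any kind and CCACG, lay in the promoter windows of 12 tested genes, none of them a member. 8 of the 12 were higher on average after TMAO, against 49% of all genes. The median difference was 0.07, against -0.0035 over all genes, and 1, Herpud1, passed the adjusted limma test. 3 of the 12 stand in the lists (Herpud1, Hyou1 and Dnajb11), and of the 9 outside them 5 had higher means, with a median difference of 0.0066. The groups did not overlap for 4 of the 12 in the higher direction and 1 in the lower, against 5.51% and 5.33% of all genes. Hyou1, an ER chaperone, had a difference of 1.06 ± 0.15 (adjusted p 0.102), and Dnajb11, an ER co-chaperone, one of 0.34 ± 0.13 (adjusted p 0.877). Ggct, an enzyme of glutathione breakdown, had the largest difference of those outside the lists, 0.66 ± 0.16 (adjusted p 0.537), with no overlap between the groups. The lowest was Ttll10, with -0.22 ± 0.18 (adjusted p 0.963). The C/EBP-ATF element TGATGNAA, found in 2.98% of the windows of tested genes, matched in 5 of the 23 windows of PERK-ATF4 targets (Fgf21, Nupr1, Chac1, Trib3 and Pck2). It also matched in Herpud1 (1 of 10 ATF6 target windows), Eif2s2 and Ppp1r15b (2 of 14 around eIF2) and Ifi27 (1 of 12 of interferon-stimulated genes). The interferon element, found in 3.42% of the windows of tested genes, matched in 8 of 12 windows of interferon-stimulated genes. In the other lists it matched in 2 of 16 windows of IRE1-XBP1 targets, 1 of 14 around eIF2 and 1 of 9 of IRE1 partners.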
